A study of Mus musculus with 30 samples.

Results

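Complement and coagulation factors are a set of 51 genes out of 55450 in the count table, picked by gene symbol: 25 of the complement system and 26 of blood coagulation and fibrinolysis. Poly(A) RNA was sequenced from the livers of 30 male mice, 1 library per mouse. Each of 3 experiments set 5 mice whose hepatocytes had lost Cebpa against 5 Cebpa fl/fl mice, which carry the floxed gene without Cre. All 30 mice were on a C57BL/6N background and ate a diet rich in fat, cholesterol and fructose (HFCFD), so no group was on normal food. In HFCFD2W, Cebpa ΔHep mice, in which albumin-driven Cre is active throughout life, were compared with Cebpa fl/fl mice after 2 weeks of diet. In HFCFD8W+T10D and HFCFD12W+T10W, Cebpa ΔHep,ERT2 mice, in which the albumin-driven Cre works only after tamoxifen, were compared with Cebpa fl/fl mice after 8 weeks of diet with 10 days of tamoxifen, or 12 weeks of diet and a further 10 weeks with tamoxifen. The labels give tamoxifen to both genotypes. The experiments differ in Cre line, diet time and tamoxifen at once, so the part of each cannot be told apart.

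Complement is a cascade of plasma proteins that marks microbes and damaged cells. It is started by C1, by lectins or by the alternative pathway, passes through C3, and ends in the membrane attack complex. Coagulation is a second cascade, in which serine proteases activate each other until thrombin turns fibrinogen into fibrin, with inhibitors that limit it and plasmin that dissolves the clot. Hepatocytes make most of these plasma proteins, whereas C1q, the receptors for the anaphylatoxins and the plasminogen activators come largely from other cells. CEBPA is a transcription factor of the C/EBP family that is abundant in hepatocytes.

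CPM values below are rounded RSEM expected counts relative to the library size, TMM-scaled within an experiment. Log2 fold changes are knockout minus Cebpa fl/fl from edgeR's quasi-likelihood test, and a gene passed at a Benjamini-Hochberg adjusted p below 0.05 over all genes tested. Library totals lay between 7996123 and 10257347 counts. Cebpa itself averaged 150.5 CPM in Cebpa fl/fl and 4.03 CPM in Cebpa ΔHep mice of HFCFD2W. In the tamoxifen experiments the Cebpa fl/fl and Cebpa ΔHep,ERT2 means were 147.2 and 17.8 CPM (HFCFD8W+T10D), then 129.1 and 24.8 CPM (HFCFD12W+T10W). All 10 hepatocyte markers were detected in every experiment. Scaling matters for what follows. With library totals in place of TMM the median log2 fold change of all genes moved from 0.01 to 0.03, 0.19 and 0.38 in HFCFD2W, HFCFD8W+T10D and HFCFD12W+T10W. Among all genes that passed in HFCFD12W+T10W, 53.5% were higher with TMM, 63.3% with upper quartile scaling and 88.0% with library totals. Albumin, the most abundant hepatocyte marker, was at 87590 CPM in Cebpa fl/fl and 40814 CPM in Cebpa ΔHep,ERT2 livers there. The part of scaling in each result was not tested beyond these alternatives.

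C/EBP proteins bind a short DNA word, and the promoters of 7 members that hold it, picked by hand, are printed to show where it lies. RefSeq promoter windows on GRCm38.p6 were found for 39 of the 51 members. The 250 bases before each start site were searched on both strands for TTGCNNAA, whose reverse complement is TTNNGCAA, and for the longer consensus of HNF1, another liver transcription factor. The C/EBP word lay in the windows of 9 members, 23.1% of those with a window, and in 10.8% of 27025 genes. The HNF1 word lay in 3 members (Hc, C4bp and F13b), 7.69% of those with a window, and in 0.44% of all genes. Bases inside the annotated gene were left out of the printed windows, and the capitals mark the C/EBP word.
F11, chr8:45262032-45262281, minus strand: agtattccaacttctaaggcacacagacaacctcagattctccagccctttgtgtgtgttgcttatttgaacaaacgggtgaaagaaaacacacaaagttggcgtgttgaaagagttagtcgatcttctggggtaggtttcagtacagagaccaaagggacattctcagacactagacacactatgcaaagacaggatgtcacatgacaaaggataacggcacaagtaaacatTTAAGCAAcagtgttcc
Klkb1, chr8:45294860-45295085, minus strand: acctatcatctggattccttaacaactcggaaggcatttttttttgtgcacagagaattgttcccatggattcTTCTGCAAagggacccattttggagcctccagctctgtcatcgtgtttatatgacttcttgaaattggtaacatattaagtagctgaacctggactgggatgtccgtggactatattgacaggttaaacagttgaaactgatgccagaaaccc
F9, chrX:59999214-59999463, plus strand: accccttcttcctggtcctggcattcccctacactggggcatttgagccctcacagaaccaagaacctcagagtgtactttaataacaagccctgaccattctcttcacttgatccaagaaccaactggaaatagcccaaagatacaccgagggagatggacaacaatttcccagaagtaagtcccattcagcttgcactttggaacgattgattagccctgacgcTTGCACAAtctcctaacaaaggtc
Fga, chr3:83025903-83026075, plus strand: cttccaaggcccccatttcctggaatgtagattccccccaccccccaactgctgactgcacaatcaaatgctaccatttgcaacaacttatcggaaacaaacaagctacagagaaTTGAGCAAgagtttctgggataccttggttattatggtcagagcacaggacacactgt
Fgb, chr3:83049864-83050113, minus strand: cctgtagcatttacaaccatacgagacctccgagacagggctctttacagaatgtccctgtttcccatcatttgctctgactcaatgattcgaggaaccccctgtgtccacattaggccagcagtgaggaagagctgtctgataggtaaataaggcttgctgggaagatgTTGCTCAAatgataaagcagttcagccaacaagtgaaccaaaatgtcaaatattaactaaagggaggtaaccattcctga
C3, chr17:57228137-57228386, minus strand: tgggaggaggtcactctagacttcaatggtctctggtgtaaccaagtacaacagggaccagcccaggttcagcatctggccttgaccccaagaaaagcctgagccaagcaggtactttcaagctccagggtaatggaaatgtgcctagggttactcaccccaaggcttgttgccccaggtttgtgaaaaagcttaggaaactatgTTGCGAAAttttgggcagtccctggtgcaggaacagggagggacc
C9, chr15:6445096-6445326, plus strand: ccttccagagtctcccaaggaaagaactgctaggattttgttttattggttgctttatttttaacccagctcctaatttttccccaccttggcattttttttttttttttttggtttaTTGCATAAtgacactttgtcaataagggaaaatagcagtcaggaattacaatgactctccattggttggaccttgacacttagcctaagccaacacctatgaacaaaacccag
The word began 17 bases before the RefSeq start of F11, 24 before that of F9, 45 before C3, 80 before Fgb, 132 before C9, 135 before Fga and 177 before Klkb1. For C9, Fga and Klkb1 the annotated gene begins upstream of the RefSeq start, so the printed window ends short of it and the word lies nearer to its end. C1s1 and Plaur held it too and are not printed. The match is a description of letters and not a binding site. Of the 9 members with the word, 0 fell and 1 rose in HFCFD2W, 3 fell and 1 rose in HFCFD8W+T10D, and 6 fell and 1 rose in HFCFD12W+T10W. Of the 30 members with a window but without the word, 3 fell and 5 rose, 2 fell and 6 rose, and 18 fell and 6 rose. In the same order 8.09%, 6.85% and 23.8% of all genes tested were lower, and 8.6%, 10.3% and 27.4% were higher. Of the 9 members 1, 1 and 0 were not tested, and of the 30 members 2, 1 and 1. No test of members with the word against those without it was run.

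In Cebpa fl/fl livers the liver-made factors were at high levels and the receptors and activators at low ones. On the TPM scale, which divides by transcript length, Fga was at 2195, 2182 and 2266 TPM in the Cebpa fl/fl mice of HFCFD2W, HFCFD8W+T10D and HFCFD12W+T10W. C3 was at 1333, 2118 and 3119 TPM, and Serpinc1, the gene of antithrombin, at 2219, 2031 and 2243 TPM. F3, the gene of tissue factor, was between 1.83 and 2.40 TPM, and Plat, which encodes tissue plasminogen activator, between 0.26 and 0.46 TPM. F13a1, the catalytic subunit of factor XIII, was near 0 in all groups and was not tested.

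The 2 systems differed in how many members passed. In HFCFD2W, 8 complement members rose and 2 fell of 24 tested, against 8.6% of all 11068 genes higher and 8.09% lower. No coagulation member rose and 2 fell of 23 tested. In HFCFD8W+T10D, 9 complement members rose and 2 fell of 25, against 10.3% and 6.85% of 11990 genes, and 1 coagulation member rose and 3 fell of 24. In HFCFD12W+T10W, 6 complement members rose and 11 fell of 25, against 27.4% and 23.8% of 12463 genes, and 4 coagulation members rose and 19 fell of 25. In that experiment 51.1% of all genes passed in either direction. Leaving out 1 mouse at a time gave between 5 and 9 complement members higher, 1 or 2 lower, and 0 or 1 coagulation members lower in HFCFD2W. When the fold also had to exceed 2, complement had 0 higher and 0 lower members in HFCFD2W, then 3 and 1 with HFCFD8W+T10D and 5 and 1 with HFCFD12W+T10W, beside 1.69% and 1.38%, 4.09% and 2.01%, and 14.3% and 3.47% of all genes. Coagulation had 0 and 1, 0 and 1, and 4 and 1. Members whose genotype groups did not overlap numbered 3 higher and 0 lower for complement in HFCFD2W (6.42% and 6.13% of all genes), 6 and 1 for HFCFD8W+T10D (6.36% and 5.28%), and 5 and 7 for HFCFD12W+T10W (20.9% and 16.8%). For coagulation these were 1 and 0, 1 and 4, and 4 and 18. No member fell in every experiment, which 1.95% of all genes did.

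The median log2 fold change over the members tested was 0.14, 0.22 and -0.20 for complement in HFCFD2W, HFCFD8W+T10D and HFCFD12W+T10W, and -0.02, -0.22 and -0.58 for coagulation, beside 0.01 for all genes in each. With library totals HFCFD8W+T10D had 15 complement members higher and 2 lower, with a median of 0.39, and 5 coagulation members higher and 3 lower, with a median of -0.04. The HFCFD12W+T10W complement members were then 10 higher and 4 lower, with a median of 0.17. The coagulation members were 6 higher and 13 lower, with a median of -0.21. With the same scaling 2023 of all 11990 genes were higher and 382 lower in HFCFD8W+T10D. In HFCFD12W+T10W these were 7049 and 962 of 12463 genes, with a median of 0.38. Of the 19 coagulation members that fell, 13 still passed as lower, and 3 changed sign. Of the 11 complement members that fell, 4 still passed as lower, and 2 changed sign.

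**Figure D1:**
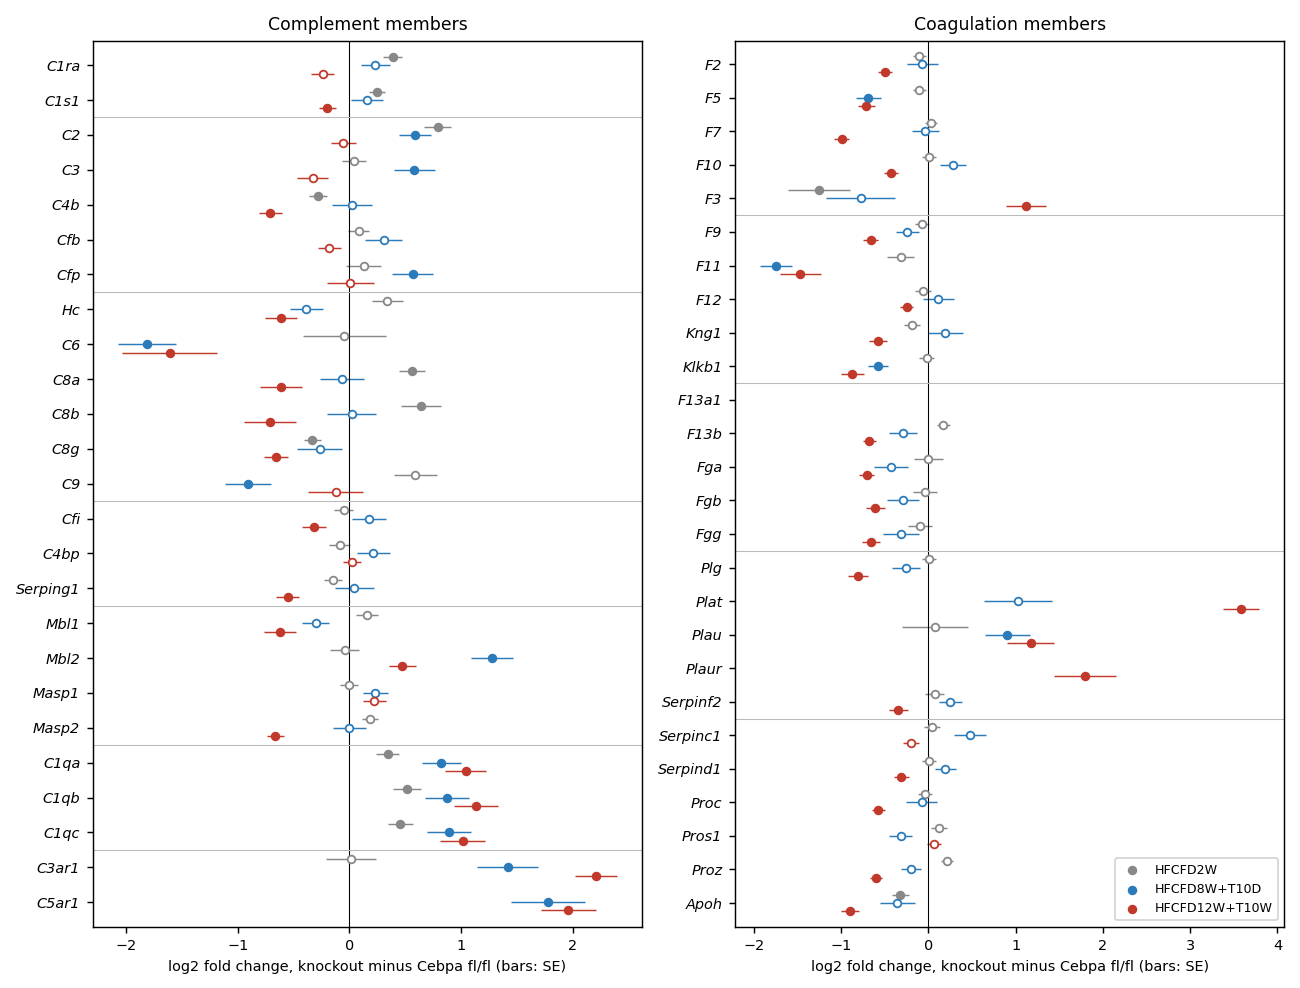
Log2 fold change (knockout minus Cebpa fl/fl, x axis) with its standard error for each complement member (left) and coagulation member (right), grouped by role, in the 3 experiments; filled points passed at an adjusted p below 0.05, n = 5 mice per genotype. In HFCFD12W+T10W, 19 coagulation members lie left of 0 as filled points, while C1q and the anaphylatoxin receptors lie right of 0.

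**Figure D2:**
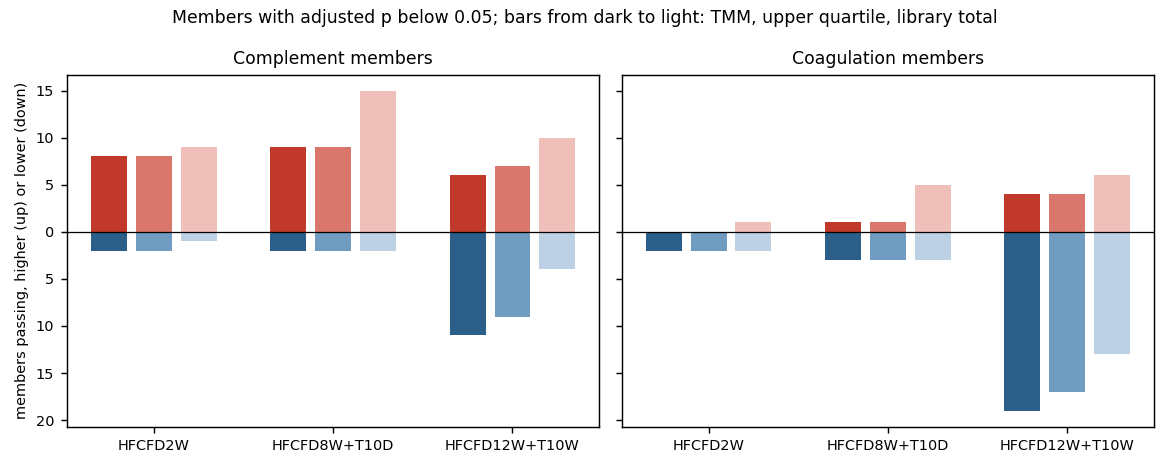
Number of complement and coagulation members that passed as higher (above 0) or lower (below 0) in each experiment under TMM, upper quartile and library total scaling, from dark to light bars. The HFCFD12W+T10W complement bars change from 6 higher and 11 lower with TMM to 10 higher and 4 lower with library totals. Over all 12463 genes, 3411 higher and 2960 lower with TMM became 7049 and 962.

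C1q, the recognition unit of C1, was the one part of complement whose 3 genes rose in every experiment. C1qa CPM was 29.8, 22.5, 21.7, 23.6 and 24.8 in HFCFD2W Cebpa fl/fl mice and 27.96, 31.2, 28.05, 37.0 and 31.2 in Cebpa ΔHep mice, and the groups overlapped. The C1qa log2 fold change there was 0.35 (SE 0.10; adjusted p = 0.0366), and it no longer passed in 7 of the 10 fits that left out 1 mouse, reaching 0.0884 when Cebpa fl/fl replicate 2 was left out. In HFCFD8W+T10D, C1qa CPM was 119, 119, 122, 83.4 and 82.6 against 204, 234, 211, 158 and 126, with no overlap and a log2 fold change of 0.83 (SE 0.18; adjusted p = 0.00808). The HFCFD12W+T10W values were 43.2, 57.3, 77.8, 89.8 and 94.6 against 142, 179, 134, 149 and 144, again with no overlap, at 1.04 (SE 0.18; adjusted p = 0.000387). C1qb rose by 0.52, 0.88 and 1.14 and C1qc by 0.46, 0.89 and 1.02 on the log2 scale in the same order. For C1qb and C1qc the genotype groups overlapped in HFCFD2W and HFCFD8W+T10D, and not in HFCFD12W+T10W. The 3 genes lie side by side on chromosome 4, between 2851 and 3616 bases apart, and the share of all genes that passed as higher in every experiment was 1.69%. Macrophage markers moved the same way: 3 of 9, 7 of 10 and 6 of 10 rose, with 2 lower in HFCFD12W+T10W (Marco and Timd4). Of all genes 8.6%, 10.3% and 27.4% were higher in the same order. The summed CPM of the 10 markers ranged from 180 to 252 in Cebpa fl/fl and 218 to 345 in Cebpa ΔHep in HFCFD2W, then from 624 to 1161 and from 1065 to 2264 in the livers of HFCFD8W+T10D. The ranges were 340 to 1082 and 1085 to 1329 in HFCFD12W+T10W, with no overlap. Whether more cells or more RNA per cell was measured cannot be told apart in bulk tissue, and the part of these cells in the C1q result was not tested.

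The receptors for the anaphylatoxins, C3ar1 and C5ar1, rose in both tamoxifen experiments. C3ar1 CPM was 6.81, 8.38, 7.95, 5.84 and 5.47 in HFCFD8W+T10D Cebpa fl/fl mice and 18.5, 32.1, 18.3, 10.8 and 11.7 in Cebpa ΔHep,ERT2 mice, with no overlap, at a log2 fold change of 1.42 (adjusted p = 0.0044). In HFCFD12W+T10W C3ar1 was 2.13, 3.70, 4.42, 5.33 and 5.61 against 21.3, 20.002, 19.1, 22.1 and 16.5, at 2.21 (adjusted p = 1.65e-06). In HFCFD2W its mean was 1.69 CPM against 1.71 CPM. C5ar1 rose by 1.78 and 1.96 on the log2 scale in HFCFD8W+T10D and HFCFD12W+T10W and was not tested in HFCFD2W because of its low counts. The C3ar1 genotype effect was larger in HFCFD8W+T10D than in HFCFD2W by 1.39 (adjusted p = 0.0222) in the fit across all libraries, and HFCFD12W+T10W exceeded HFCFD2W by 2.16 (adjusted p = 0.000252).

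**Figure D3:**
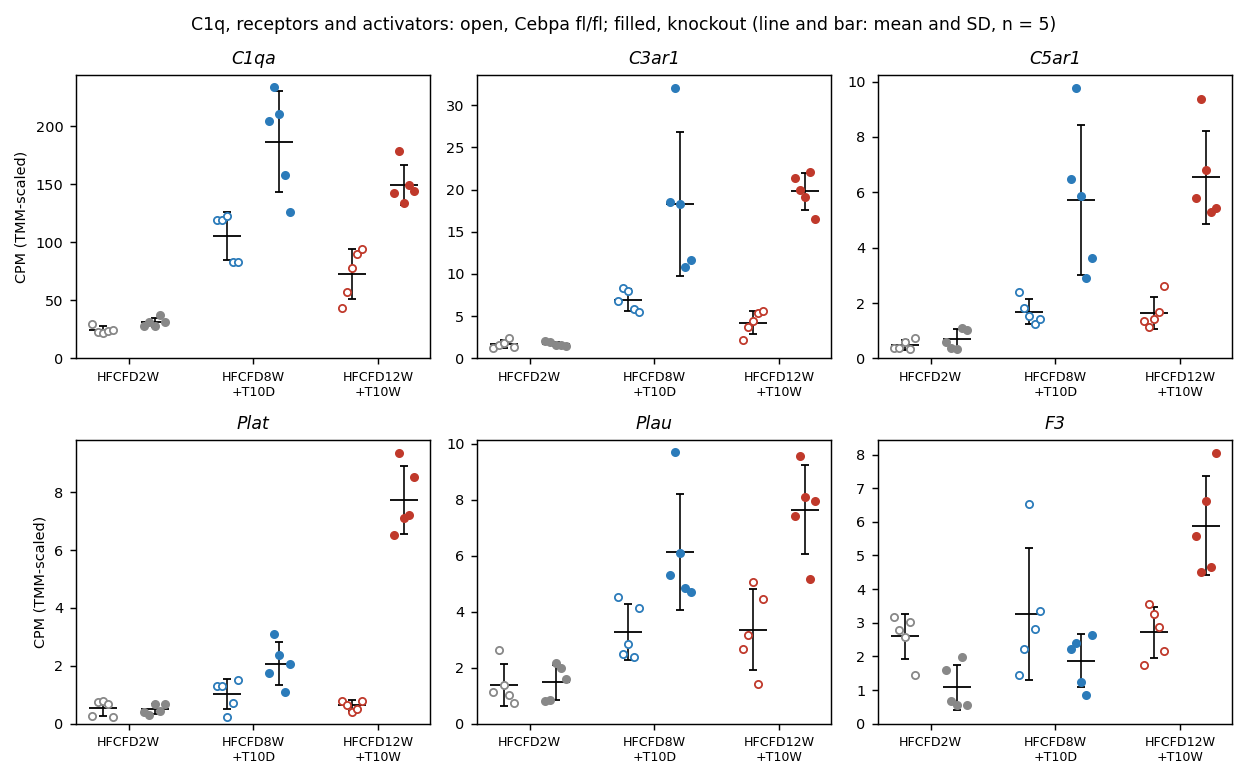
CPM (y axis, linear from 0) of C1qa, C3ar1, C5ar1, Plat, Plau and F3 in each mouse; open points are Cebpa fl/fl, filled points the knockout, and the line and bar give the mean and SD of 5 mice. In HFCFD12W+T10W Plat lies between 0.39 and 0.801 CPM in Cebpa fl/fl and between 6.51 and 9.36 CPM in Cebpa ΔHep,ERT2 mice.

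Both C1 proteases rose in HFCFD2W. C1ra had means of 415 and 542 CPM in HFCFD2W, a log2 fold change of 0.39 (adjusted p = 0.0063), and C1s1 rose by 0.25 (adjusted p = 0.032), which 5 of the 10 fits without 1 mouse lost (0.0886 without Cebpa fl/fl replicate 1). In HFCFD12W+T10W, C1ra was at -0.24 (adjusted p = 0.0752), and C1s1 fell by 0.20 with TMM but rose by 0.17 with library totals. That fall was lost in 6 of the 10 fits without 1 mouse (adjusted p = 0.0956 without Cebpa ΔHep,ERT2 replicate 5). Compared with HFCFD2W, the HFCFD12W+T10W genotype effect with TMM was lower by 0.67 for C1ra (adjusted p = 0.00146) and by 0.48 for C1s1 (adjusted p = 0.00891). With library totals the median of all genes moved from 0.01 to 0.03 in HFCFD2W and to 0.38 in HFCFD12W+T10W. Both differences are given with TMM alone, and the part of scaling in their size was not tested. C1ra and C1s1 have close paralogs, C1rb and C1s2, with which reads may be shared.

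Among C3 and the convertase genes, C2 was higher in the first 2 experiments. C2 is cleaved to form part of the C3 convertase of the classical and lectin pathways. Its CPM was 127, 101, 116, 162 and 112 in HFCFD2W Cebpa fl/fl mice and 220, 218, 218, 181 and 235 in Cebpa ΔHep mice, with no overlap, at a log2 fold change of 0.79 (SE 0.12; adjusted p = 0.00068). In HFCFD8W+T10D it was 133, 133, 136, 120 and 93.4 against 157, 183, 203, 231 and 151, also with no overlap, at 0.59 (adjusted p = 0.0135). In HFCFD12W+T10W its means were 149 and 144 CPM, at -0.05 (adjusted p = 0.724) and at 0.32 with library totals (adjusted p = 0.0113). C2 and Cfb lie 85 bases apart on chromosome 17, and Cfb, which forms the alternative convertase, did not pass in any experiment, at 0.08, 0.31 and -0.18.

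C3, the hub of the cascade, was the most abundant complement transcript. In HFCFD8W+T10D its CPM was 10096, 10967, 9512, 8974 and 9381 in Cebpa fl/fl mice and 16874, 13614, 15858, 15628 and 11268 in Cebpa ΔHep,ERT2 mice, with no overlap. The log2 fold change was 0.58 (SE 0.18; adjusted p = 0.0434), and 7 of the 10 fits without 1 mouse did not pass, reaching 0.122 when Cebpa fl/fl replicate 4 was left out. In HFCFD12W+T10W the means were 14293 and 11382 CPM, at -0.33 (adjusted p = 0.0675), and at 0.05 with library totals. The genotype effect in HFCFD12W+T10W was lower than in HFCFD8W+T10D by 0.94 (adjusted p = 0.00237). C4b fell by 0.28 in HFCFD2W (not in 7 of the 10 fits without 1 mouse, reaching 0.0913 when Cebpa fl/fl replicate 5 was left out) and by 0.71 in HFCFD12W+T10W, and it is a near copy of C4a. Cfp, the gene of properdin, rose in HFCFD8W+T10D by 0.57 (adjusted p = 0.0482), which 8 of the 10 fits without 1 mouse did not keep (0.122 without Cebpa ΔHep,ERT2 replicate 2).

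The terminal pathway, whose products form the membrane attack complex, was uneven among its members. C6 fell in both tamoxifen experiments. Its CPM was 143, 196, 218, 195 and 75.4 in HFCFD8W+T10D Cebpa fl/fl mice and 39.0, 56.0, 52.1, 57.0 and 31.4 in Cebpa ΔHep,ERT2 mice, with no overlap, and the log2 fold change was -1.81 (SE 0.26; adjusted p = 0.000598). After the longer course, in HFCFD12W+T10W, it was 153, 99.9, 54.3, 207 and 29.97 against 28.5, 29.7, 53.2, 42.2 and 24.6, with overlap, at -1.61 (SE 0.43; adjusted p = 0.00709). In HFCFD2W, C6 CPM was 262, 140, 187, 363 and 192 against 393, 347, 126, 101 and 140, at -0.05 (adjusted p = 0.953), and both groups were widely spread.

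C8a and C8b, which lie 11130 bases apart on chromosome 4, moved together. C8a CPM was 1070, 930, 978, 1162 and 950 in HFCFD2W Cebpa fl/fl mice and 1435, 1634, 1683, 1122 and 1630 in Cebpa ΔHep mice, with overlap in 1 knockout mouse, at 0.56 (adjusted p = 0.00536). In HFCFD12W+T10W it was 956, 828, 715, 1328 and 607 against 549, 591, 721, 591 and 456, at -0.61 (adjusted p = 0.0165). C8b followed at 0.64 and -0.71, with adjusted p of 0.0289 (lost in 7 of the 10 fits without 1 mouse, up to 0.0728 without Cebpa fl/fl replicate 2) and 0.0209 (0.0507 without Cebpa ΔHep,ERT2 replicate 5), and neither gene passed in HFCFD8W+T10D, at -0.07 and 0.02. With library totals C8a was at -0.23 and C8b at -0.34 in HFCFD12W+T10W, and neither passed. C8g, the third subunit, is on another chromosome and fell in HFCFD2W by 0.33 and in HFCFD12W+T10W by 0.66.

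C9, the subunit that forms the pore, was chosen for this description after its values were seen. Its CPM was 376, 629, 474, 592 and 312 in HFCFD8W+T10D Cebpa fl/fl mice and 323, 267, 226, 268 and 187 in Cebpa ΔHep,ERT2 mice, with overlap in 1 mouse, at -0.91 (SE 0.20; adjusted p = 0.00993). In HFCFD2W it was at 0.59 (adjusted p = 0.0504), and its mean in Cebpa fl/fl livers was 1011 CPM there against 477 and 424 CPM in the later experiments, which were scaled separately. The genotype effect in HFCFD8W+T10D was lower than in HFCFD2W by 1.51 (adjusted p = 0.00392). Hc, the gene of C5, was at 0.34, -0.39 and -0.61, and passed in HFCFD12W+T10W alone, where it was at -0.24 with library totals (adjusted p = 0.127).

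In the lectin pathway, Mbl1 and Mbl2, both mannose-binding lectins, went opposite ways in HFCFD12W+T10W. Mbl2, chosen after its values were seen, was 359, 402, 369, 317 and 359 CPM in HFCFD8W+T10D Cebpa fl/fl mice and 549, 983, 792, 1226 and 830 CPM in Cebpa ΔHep,ERT2 mice. These groups did not overlap, at a log2 fold change of 1.28 (SE 0.18; adjusted p = 0.000639). In HFCFD12W+T10W Mbl2 was 365, 382, 380, 446 and 351 against 673, 550, 398, 528 and 523, with overlap, at 0.47 (adjusted p = 0.00571), and in HFCFD2W it was at -0.04. Mbl1 was at -0.30 in HFCFD8W+T10D (adjusted p = 0.107) and fell by 0.62 in HFCFD12W+T10W (adjusted p = 0.00285), but was at -0.24 with library totals (adjusted p = 0.127). Masp2, the protease that cleaves C4 and C2, fell by 0.66 in HFCFD12W+T10W, from means of 230 to 145 CPM, and Masp1 did not pass.

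Of the complement inhibitors, Serping1, the gene of C1 inhibitor, fell by 0.55 in HFCFD12W+T10W and Cfi by 0.32 (adjusted p = 0.0236, and 0.0565 without Cebpa ΔHep,ERT2 replicate 5), and C4bp did not pass in any experiment, at -0.09, 0.22 and 0.02. With library totals neither Serping1 (-0.18) nor Cfi (0.05) passed.

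**Figure D4:**
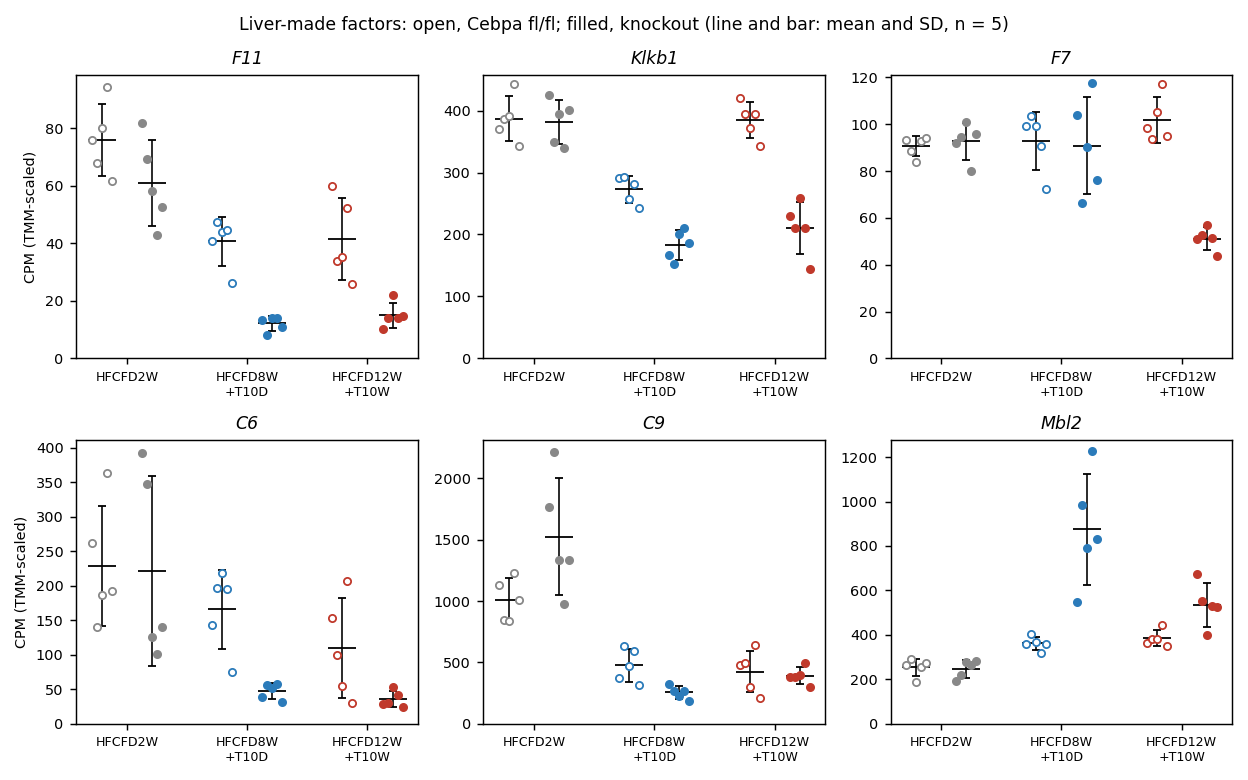
CPM (y axis, linear from 0) of F11, Klkb1, F7, C6, C9 and Mbl2 in each mouse; open points are Cebpa fl/fl, filled points the knockout, and the line and bar give the mean and SD of 5 mice. F11 lies below the Cebpa fl/fl mice in both tamoxifen experiments, and F7 only in HFCFD12W+T10W.

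Among coagulation members that fell in the tamoxifen experiments, F11 of the intrinsic pathway fell most. F11 encodes factor XI and lies 4657 bases from Klkb1, the gene of plasma kallikrein, on chromosome 8. F11 CPM was 40.9, 47.4, 44.0, 44.7 and 26.2 in HFCFD8W+T10D Cebpa fl/fl mice and 13.4, 8.24, 14.01, 14.1 and 10.98 in Cebpa ΔHep,ERT2 mice, with no overlap, at -1.75 (SE 0.18; adjusted p = 6.11e-05). The HFCFD12W+T10W values of F11 were 60.0, 34.0, 35.4, 52.4 and 25.7 against 10.4, 13.98, 22.1, 13.9 and 14.6, also with no overlap, at -1.47 (SE 0.24; adjusted p = 0.000242). In HFCFD2W it was 75.9, 67.9, 80.1, 94.4 and 61.8 against 82.0, 69.2, 58.1, 42.8 and 52.8, at -0.32 (adjusted p = 0.19). The genotype effect in HFCFD8W+T10D was lower than in HFCFD2W by 1.44 (adjusted p = 0.00225).

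Klkb1, chosen after its values were seen, was 291, 293, 256, 281 and 244 CPM in HFCFD8W+T10D Cebpa fl/fl mice and 167, 153, 201, 211 and 186 CPM in Cebpa ΔHep,ERT2 mice, at -0.57 (adjusted p = 0.00526). The HFCFD12W+T10W values of Klkb1 were 420, 394, 372, 395 and 344 against 229, 210, 259, 210 and 145, at -0.87 (adjusted p = 0.000119). The groups overlapped in neither. Klkb1 was at -0.02 in HFCFD2W. F9 fell by 0.66, Kng1, the kininogen gene, by 0.58 and F12 by 0.25 in HFCFD12W+T10W, with no pass in the first 2 experiments, and Kng1 may share reads with its paralog Kng2. With library totals neither Kng1 (-0.21, adjusted p = 0.053) nor F12 (0.12, adjusted p = 0.124) passed.

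In the common and tissue factor pathway, F5, the cofactor of factor X, fell in both tamoxifen experiments. F5 CPM was 738, 764, 610, 772 and 660 in HFCFD8W+T10D Cebpa fl/fl mice and 421, 345, 447, 573 and 416 in Cebpa ΔHep,ERT2 mice, at -0.69 (adjusted p = 0.00701). In HFCFD12W+T10W it was 996, 889, 999, 880 and 804 against 567, 594, 557, 614 and 465, at -0.71 (adjusted p = 5.39e-05). Neither pair of groups overlapped.

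F7, chosen after its values were seen, was 98.2, 93.5, 105, 117 and 95.0 CPM in HFCFD12W+T10W Cebpa fl/fl mice and 51.03, 52.6, 57.2, 51.2 and 43.7 CPM in Cebpa ΔHep,ERT2 mice. There was no overlap, and the log2 fold change was -0.99 (SE 0.09; adjusted p = 1.85e-06). It was at 0.03 and -0.03 in HFCFD2W and HFCFD8W+T10D, and the HFCFD12W+T10W effect minus that of HFCFD8W+T10D was -0.99 (adjusted p = 0.00051). F7 lies 1498 bases from F10 and F10 lies 4237 bases from Proz on chromosome 8, and F10 fell by 0.42 and Proz by 0.60 in HFCFD12W+T10W. F10 was at -0.05 with library totals (adjusted p = 0.536). F2, the gene of prothrombin, fell by 0.50 there with TMM, and was at -0.12 with library totals (adjusted p = 0.135).

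F3 was the only coagulation member that passed as lower in 1 experiment and as higher in another, at low counts. Its CPM was 3.16, 2.77, 2.59, 3.01 and 1.45 in HFCFD2W Cebpa fl/fl mice and 1.61, 0.668, 0.568, 1.98 and 0.570 in Cebpa ΔHep mice, with overlap, at -1.25 (SE 0.35; adjusted p = 0.0296). These were 12 to 26 counts per Cebpa fl/fl library and 5 to 18 per Cebpa ΔHep library. The fall did not pass in 7 of the 10 fits without 1 mouse (adjusted p up to 0.0691, without Cebpa ΔHep replicate 6). In HFCFD12W+T10W it was 1.73, 3.57, 3.25, 2.86 and 2.17 against 5.59, 4.52, 6.61, 4.66 and 8.05, with no overlap, at 1.12 (SE 0.23; adjusted p = 0.00124). The difference of these genotype effects was 2.33 (adjusted p = 0.000971).

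The fibrinogen genes Fga, Fgb and Fgg, which stand together on chromosome 3, fell together in HFCFD12W+T10W. Fga went from a mean of 4036 to 2470 CPM, at -0.71 (adjusted p = 3.09e-05), Fgb from 3702 to 2429 CPM, at -0.61 (adjusted p = 0.000403), and Fgg from 2879 to 1823 CPM, at -0.66 (adjusted p = 0.000168). In HFCFD8W+T10D the 3 were at -0.43, -0.29 and -0.31 and none passed. F13b, the carrier subunit of factor XIII, fell by 0.67 in HFCFD12W+T10W.

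Fibrinolysis was split between its liver-made zymogen and its activators. Plg, the gene of plasminogen, fell in HFCFD12W+T10W from a mean of 2626 to 1504 CPM, at -0.80 (adjusted p = 7.25e-05). Plat CPM was 0.801, 0.637, 0.390, 0.520 and 0.801 in Cebpa fl/fl mice and 6.51, 9.36, 7.11, 7.20 and 8.52 in Cebpa ΔHep,ERT2 mice of that experiment. The groups did not overlap and the log2 fold change was 3.58 (SE 0.21; adjusted p = 1.19e-07), the largest of any member. Plat had 3 to 7 counts per Cebpa fl/fl library there against 64 to 91 in the knockout. It was high enough to test only through the knockout mice, and its fold rests on few Cebpa fl/fl counts. In HFCFD8W+T10D Plat was 1.31, 1.31, 0.237, 0.729 and 1.52 against 1.74, 3.09, 2.37, 1.09 and 2.06, with overlap, at 1.02 (adjusted p = 0.0914). Plau, the gene of urokinase, rose by 0.90 in HFCFD8W+T10D (adjusted p = 0.029) and by 1.18 in HFCFD12W+T10W (adjusted p = 0.00271), and the first did not pass in 5 of the 10 fits without 1 mouse (up to 0.0743 without Cebpa fl/fl replicate 4). Plaur, its receptor, was 0.400, 0.382, 1.17, 0.390 and 1.49 CPM in HFCFD12W+T10W Cebpa fl/fl mice and 2.13, 2.69, 3.06, 2.22 and 3.56 CPM in Cebpa ΔHep,ERT2 mice, at 1.79 (adjusted p = 0.00102). Plaur had 3 to 13 counts per Cebpa fl/fl library against 21 to 38, and likewise could be tested only through the knockout mice. Serpinf2, the plasmin inhibitor, fell by 0.35 there with TMM and was at 0.03 with library totals.

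In HFCFD12W+T10W the summed CPM of 10 stellate cell and fibroblast markers was between 357 and 444 in Cebpa fl/fl and between 1331 and 1629 in Cebpa ΔHep,ERT2 livers, and all 10 markers rose. In the same livers 9 of the 9 cholangiocyte markers tested and 6 of 7 leukocyte markers rose, while 5 of 10 hepatocyte markers fell. Endothelial markers rose for 2 and fell for 2 of 10, and 1 of 3 platelet markers rose. Of all genes tested there, 27.4% rose and 23.8% fell. In HFCFD8W+T10D 3 of 10 stellate cell and fibroblast, 4 of 7 cholangiocyte and 3 of 6 leukocyte markers rose. There 3 of 10 hepatocyte markers fell, while 10.3% of all genes rose and 6.85% fell. In HFCFD2W 2 of 10 hepatocyte markers rose and 0 fell, beside 8.6% and 8.09% of all genes. The part of these cells in the changes of Plat, Plaur, Plau and F3, and that of the hepatocyte markers in the 19 coagulation and 11 complement members that fell in HFCFD12W+T10W, was not tested.

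Of the anticoagulants, Apoh, beta-2-glycoprotein I, fell in HFCFD12W+T10W. Its CPM was 1949, 1750, 2042, 2224 and 1827 in Cebpa fl/fl mice and 1102, 995, 1186, 1079 and 893 in Cebpa ΔHep,ERT2 mice, with no overlap, at -0.90 (adjusted p = 1.15e-05). In HFCFD2W Apoh fell by 0.32 (adjusted p = 0.0354), with 7 of the 10 fits without 1 mouse losing the call (0.0865 without Cebpa fl/fl replicate 2). In HFCFD8W+T10D it was at -0.35 (adjusted p = 0.248) and passed only without Cebpa ΔHep,ERT2 replicate 2, at -0.58 (adjusted p = 0.0128). Proc, the gene of protein C, fell by 0.57 and Serpind1 by 0.31 in HFCFD12W+T10W, where Serpind1 was at 0.06 with library totals (adjusted p = 0.488). Serpinc1 and Pros1, the gene of protein S, did not pass in any experiment. Serpinc1 CPM was 1848, 2081, 1745, 1570 and 1674 in HFCFD8W+T10D Cebpa fl/fl mice and 2153, 1816, 2640, 3598 and 2228 in Cebpa ΔHep,ERT2 mice, at 0.48 (adjusted p = 0.097). In HFCFD12W+T10W it was 2008, 1857, 2070, 2085 and 1796 against 1852, 1625, 1747, 1832 and 1503, at -0.20 (adjusted p = 0.0742) and at 0.17 with library totals (adjusted p = 0.0445).

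Differences of genotype effects were tested in 1 fit of all 30 libraries. Between HFCFD12W+T10W and HFCFD2W, 17 coagulation members had a lower effect in the later experiment and 2 a higher one of 25, beside 17.3% and 13.4% of all 12964 genes. For complement these were 10 and 2 of 25. Between HFCFD12W+T10W and HFCFD8W+T10D, 9 coagulation members were lower and 2 higher, and 8 complement members were lower and 0 higher, beside 5.49% and 4.97%. Between HFCFD8W+T10D and HFCFD2W, 4 coagulation members were lower and 0 higher, and 3 complement members were lower and 2 higher, beside 6.79% and 4.45%. With library totals the first coagulation count fell to 6 and the first complement count to 5. The shares of all genes under that scaling were not computed, and the shares above are for TMM. The pairs share the mice of an experiment.

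Of 30 further complement genes, regulators, receptors and paralogs, 20 were tested in HFCFD2W with 1 higher and 4 lower, 24 in HFCFD8W+T10D with 3 higher and 5 lower, and 25 in HFCFD12W+T10W with 7 higher and 13 lower. The shares of all genes tested, taking the experiments in that order, were 8.6%, 10.3% and 27.4% for higher and 8.09%, 6.85% and 23.8% for lower. Cfd, the gene of complement factor D, fell in both tamoxifen experiments, from 13.2 to 0.724 CPM and from 10.6 to 0.374 CPM, at -4.23 (SE 0.998) and -4.74 (SE 0.651). Its counts in the Cebpa ΔHep,ERT2 livers were few, so the size of both falls is uncertain. Susd4, a complement regulator, fell in HFCFD2W by 2.95 and in HFCFD8W+T10D by 2.64. C4a fell by 3.82 in HFCFD12W+T10W, with few counts in the Cebpa ΔHep,ERT2 livers. Itgax, a subunit of complement receptor 4, rose by 2.38 and 3.39 in the tamoxifen experiments. In HFCFD2W C7, of the terminal pathway, rose by 1.07 and Cpn1, of the carboxypeptidase that inactivates anaphylatoxins, fell by 0.44.

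Of 32 further coagulation and fibrinolysis genes, 25 were tested in HFCFD2W with 2 higher and 2 lower, 26 in HFCFD8W+T10D with 5 higher and 1 lower, and 27 in HFCFD12W+T10W with 10 higher and 9 lower, beside the same shares of all genes (27.4% higher and 23.8% lower in HFCFD12W+T10W). Serpine2, protease nexin 1, rose in HFCFD2W by 1.72, F2r, a thrombin receptor, rose by 0.51, and S100a10, a plasminogen receptor subunit, fell by 1.36. Plgrkt and Anxa2 rose in HFCFD8W+T10D by 1.21 and 0.95. F2rl1, Anxa2 and Fgl2 rose in HFCFD12W+T10W by 2.59, 2.24 and 1.88.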

How the data were processed

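Poly(A) RNA of 30 mouse livers, 1 library per mouse, was analysed from the gene table of RSEM expected counts as deposited by the authors. The submitters' processing notes name Trimmomatic 0.36, STAR 2.5.1, Picard 1.84, RSEM 1.2.22, DESeq2 and the mm10 build. The authors' library files also give TPM, used only to compare genes. Expected counts were rounded (3.25% were not whole). Groups came from the labels. Within each experiment edgeR 4.0.16 in R 4.3.3 was run with filterByExpr, TMM and the quasi-likelihood test, and differences of genotype effects came from 1 fit of all libraries. Nothing says that same-numbered mice were paired: deviations of same-numbered mice correlated between -0.41 and 0.07, -0.12 and 0.16, and -0.05 and 0.23 in the 3 experiments. The members and lists were chosen with earlier results of these data known. Deposited CPM and RPKM tables were not used. Named members were the 3 largest changes that passed, at a mean of at least 1 CPM in a genotype, per system and experiment, those that passed in every experiment and the most abundant one, with 4 more (F7, Mbl2, Klkb1 and C9) chosen after their values were seen. For the further genes of each system the 3 largest changes that passed were named, of which 1 is not reported here. Alternatives were upper quartile and library total scaling (the latter added after seeing the data), no low-count filter, DESeq2 1.42.0, a replicate block, robust fitting, a joint fit, a fold above 2 and leaving out each mouse. The fits were tested on simulated data with as many genes raised as lowered, which cannot speak to the choice of scaling. Each group was 5 mice, so p-values measure the spread between them.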

Additional observations from a re-analysis of the deposited data

Results flagged for a closer look

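2 of 131 groups of 5 mice had 1 value apart from the others by Dixon's test at 0.71, where chance flags about 1 in 20 groups. C1qc in HFCFD12W+T10W Cebpa ΔHep,ERT2 replicate 2 was at 168 CPM, with the nearest mouse at 132 CPM. Plau in HFCFD8W+T10D Cebpa ΔHep,ERT2 replicate 2 was at 9.70 CPM, with the nearest at 6.10 CPM.

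Differences of genotype effects were screened for 22 named members in each of the 3 pairs of experiments. The 27 that passed are given here on the log2 scale. Most members were named for their genotype effects in these same data, so the count of 27 carries no weight as support. Over all 12964 genes, 4.45% had a positive and 6.79% a negative difference between HFCFD8W+T10D and HFCFD2W. The shares were 13.4% and 17.3% between HFCFD12W+T10W and HFCFD2W, and 4.97% and 5.49% between HFCFD12W+T10W and HFCFD8W+T10D. Between HFCFD8W+T10D and HFCFD2W the difference was -1.78 for C6, 1.39 for C3ar1, -1.44 for F11, -0.59 for F5, 1.31 for Mbl2, -0.57 for Klkb1 and -1.51 for C9. Between HFCFD12W+T10W and HFCFD2W it was -0.88 for C2, -1.40 for C8b, -1.21 for C8a, -1.61 for C6, 2.16 for C3ar1, 0.66 for C1qa, 2.33 for F3, -0.62 for Apoh, -1.19 for F11, -0.65 for F5, 3.72 for Plat, -1.07 for F7 and -0.89 for Klkb1. Between HFCFD12W+T10W and HFCFD8W+T10D it was -0.67 for C2, -0.94 for C3, 1.86 for F3, 2.53 for Plat, -0.71 for Serpinc1, -0.99 for F7 and -0.83 for Mbl2. Plat had 2 to 8 counts per HFCFD2W library and was too low to test by genotype there. The 3.72 for Plat therefore has no usable HFCFD2W effect to be set against. Nearest the threshold were C1qa (HFCFD12W+T10W minus HFCFD2W, adjusted p = 0.0422) and C6 (HFCFD8W+T10D minus HFCFD2W, adjusted p = 0.0415) in edgeR's quasi-likelihood test. Cre line, diet time and tamoxifen differ between these experiments and cannot be told apart.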

How the results depend on the processing

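Counts of members are given here where they left 1.5 times the reported count, and the cause was not tested. With a fold above 2 required, HFCFD2W had 0 complement members higher, 0 lower and 1 coagulation member lower, HFCFD8W+T10D had 3 and 1 for complement and 0 and 1 for coagulation, and HFCFD12W+T10W had 1 complement and 1 coagulation member lower. With library totals (added after seeing the data) HFCFD2W had 1 complement member lower and 1 coagulation member higher, HFCFD8W+T10D 15 and 5 members higher, and HFCFD12W+T10W 10 complement members higher and 4 lower. The differences of genotype effects then were 7 positive and 1 negative for complement and 4 and 2 for coagulation (HFCFD8W+T10D minus HFCFD2W), 8 and 5 for complement and 6 negative for coagulation (HFCFD12W+T10W minus HFCFD2W), and 3 complement and 4 coagulation members negative (HFCFD12W+T10W minus HFCFD8W+T10D). With upper quartile scaling 4 complement members were positive and 9 coagulation members negative for HFCFD12W+T10W minus HFCFD2W, and 5 complement members negative for HFCFD12W+T10W minus HFCFD8W+T10D. For these differences the shares of all genes were not computed under either scaling. Without the low-count filter HFCFD2W had 1 complement member lower, HFCFD8W+T10D 2 coagulation members higher, and 1 complement difference was positive (HFCFD12W+T10W minus HFCFD2W). DESeq2 gave 1 coagulation member higher in HFCFD2W and 2 in HFCFD8W+T10D, of which 1 was too low to test in edgeR. The joint fit gave 3 complement members higher, 0 lower and 1 coagulation member lower in HFCFD2W, and 4 and 6 coagulation members higher and lower in HFCFD8W+T10D. With a replicate block, which the mice share only as a number, HFCFD2W had 4 complement members higher, 0 lower and 0 coagulation members lower, HFCFD8W+T10D 0 coagulation members higher, and the negative coagulation differences were 2, 8 and 4 in the order above, with 5 negative complement and 1 positive coagulation difference for HFCFD12W+T10W minus HFCFD8W+T10D.

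Leaving out 1 mouse at a time gave, in HFCFD2W, between 5 and 9 complement members higher, 1 and 2 lower, and 0 and 1 coagulation members lower, and in HFCFD8W+T10D between 0 and 1 coagulation members higher and 3 and 5 lower. Differences of effects ranged from 1 to 3 positive and 1 to 4 negative for complement and 0 to 1 positive for coagulation (HFCFD8W+T10D minus HFCFD2W), from 1 to 5 positive for complement and 10 to 17 negative for coagulation (HFCFD12W+T10W minus HFCFD2W), and from 0 to 1 positive and 4 to 11 negative for complement (HFCFD12W+T10W minus HFCFD8W+T10D). Single log2 fold changes near 0 changed sign. In HFCFD2W these were C3ar1 (-0.014) and Plau (-0.014) with the replicate block and Klkb1 (0.0027) with library totals. With library totals C8a (0.10) and F7 (0.13) did so in HFCFD8W+T10D, and C2 (0.32), C3 (0.046), Serpinc1 (0.17) and C9 (0.25) in HFCFD12W+T10W, where C2 was at 0.028 with upper quartile scaling. Without 1 mouse the ranges in HFCFD2W were -0.36 to 0.18 for C6, -0.079 to 0.18 for C3ar1, -0.13 to 0.038 for Mbl2, -0.10 to 0.42 for Plau, -0.061 to 0.034 for Klkb1, -0.0083 to 0.11 for C3 and -0.00012 to 0.080 for F7. In HFCFD8W+T10D they were -0.19 to 0.042 for C8a, -0.15 to 0.058 for F7 and -0.12 to 0.14 for C8b, and in HFCFD12W+T10W -0.30 to 0.063 for C9 and -0.13 to 0.013 for C2. At totals of 7996123 to 10257347 counts, F13a1, and C5ar1, Plat and Plaur in some experiments, were too low to test.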
